A study of Homo sapiens with 10 samples.

Results

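The genes described here are 38 genes of glycolysis and of the hypoxia response, chosen by name: the enzymes of glycolysis in order of step, the kinases that set its pace, the hypoxia-inducible factor (HIF) with its oxygen-sensing partners, and known targets of HIF. The count table held 37 of the 38 names among 60573 genes, and KDM3A-AS1 was not found under that name. RNA was measured by sequencing in U266, an established human multiple myeloma line that the labels call plasma cells. All cells carried dCas9-VPR, a Cas9 that does not cut and is fused to transcriptional activators, delivered by lentivirus. The EFNB2-guide group (5 libraries, A to E) also carried a guide RNA directed to the start site of EFNB2, the gene of the cell-surface ligand ephrin-B2, and the control group (5 libraries, A to E) carried a scrambled guide. Both groups were kept in blasticidin and puromycin and had no other treatment. The labels give no clone or passage and do not say whether libraries of a group came from separate cultures, so p-values measure the spread between these libraries, which may be technical.

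Glycolysis converts glucose to pyruvate in the cytosol, and lactate dehydrogenase can then turn pyruvate into lactate. When oxygen is low, HIF escapes prolyl hydroxylation and VHL-mediated degradation. It then raises transcription of many glycolytic enzymes and of kinases that keep pyruvate out of the citric acid cycle. Genes for blood vessel growth and mitochondrial turnover are raised as well. HIF is controlled mainly as a protein, so mRNA levels of its subunits and sensors show only a small piece of its activity. Myeloma cells are known for active glycolysis.

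Of the 34 members that passed the filter on low counts, 11 were higher and 13 lower with the EFNB2 guide at an adjusted p of 0.05 (edgeR's quasi-likelihood test with Benjamini-Hochberg adjustment over all 17833 genes tested), and 10 were not called. Over all genes tested 45.4% were called, 22.8% higher and 22.6% lower. The share of members called was 70.6%, but members are abundant genes: among genes at 10 CPM (counts scaled by library size) or more, 57.2% were called, and 21 of 29 members. The 5 values of each guide did not overlap in 21 members, against 30.3% of all genes tested. Most changes of the members were small, and their size was near that of all genes (median absolute log2 fold change 0.158 against 0.161). The median log2 fold change with its sign was 0.0033 over the members, beside 0.0073 over all genes. Only HK2 and PDK3 differed by 1.5-fold or more, against 1887 of all 17833 genes tested. No direction was shared by the whole pathway: hexokinase 2, aldolase C, GAPDH and the pyruvate dehydrogenase kinases were lower, whereas pyruvate kinase M, enolase 2, the platelet-type phosphofructokinase and PFKFB3 were higher. The plot of fold changes by step shows this mixture.

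**Figure D1:**
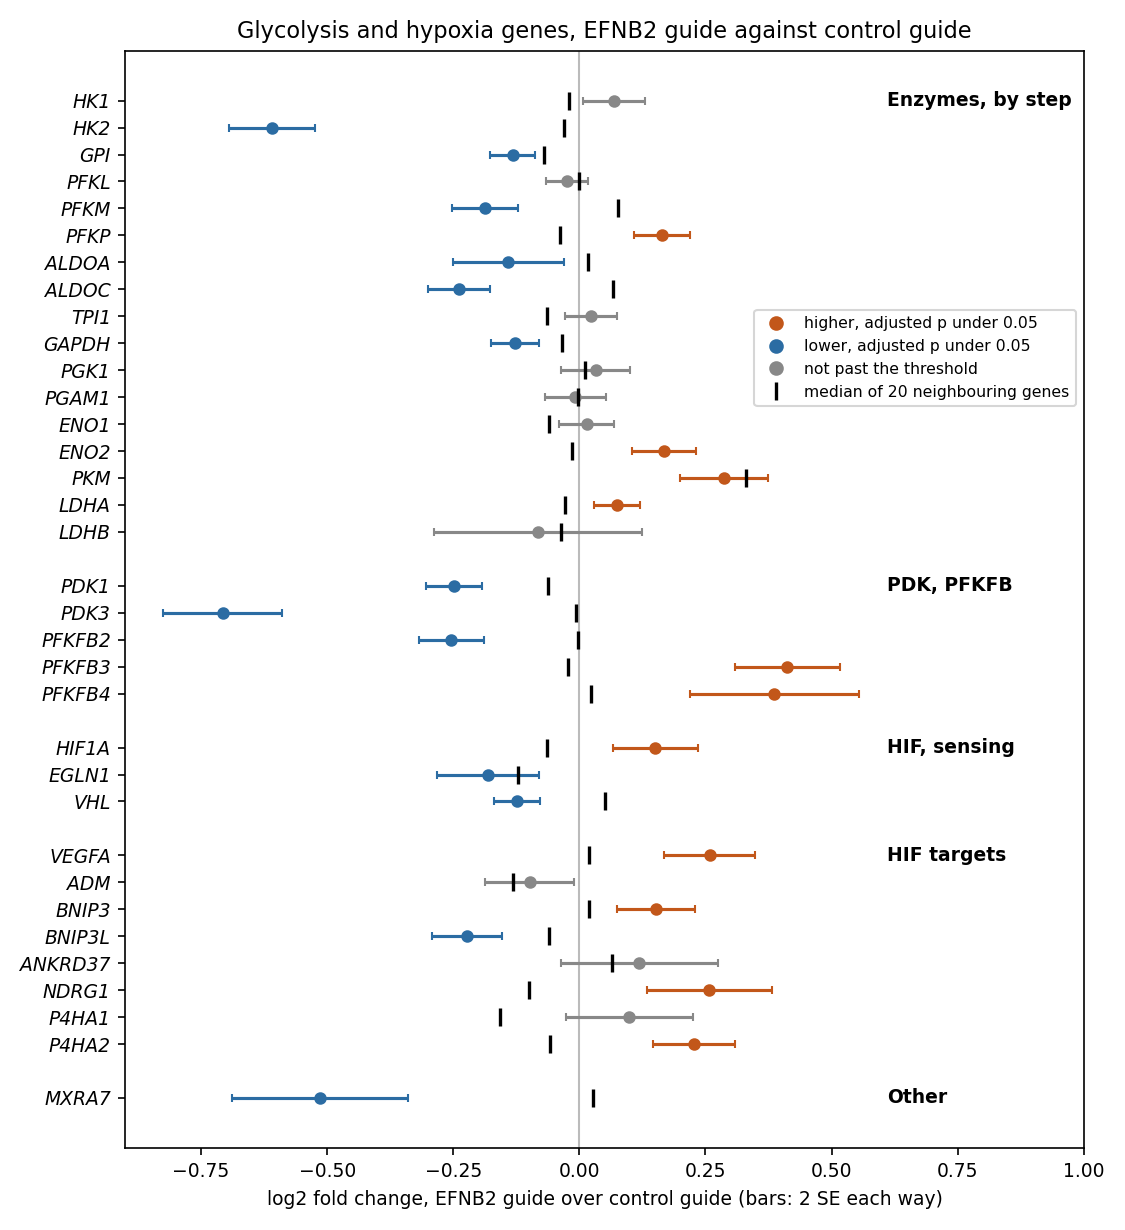
Log2 fold change of each of the 34 tested members, EFNB2 guide over control guide, ordered by role. Points are estimates of edgeR's quasi-likelihood fit and bars are 2 standard errors each way. Black ticks are the median of neighbouring tested genes on the chromosome, up to 10 on each side (20 in all, but 17 for PFKP and 19 for ANKRD37). HK2 and PDK3 lie farthest to the left, PFKFB3 and PFKFB4 farthest to the right, and PKM is the called member whose neighbours moved as far as it did.

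Total counts were 47267929 to 56513336 per library and lower with the EFNB2 guide (50445346 ± 2882743 against 54263674 ± 1949995, SD, n = 5 each, two-sided exact permutation p = 0.0397), so 3 counts corresponded to 0.0537 to 0.0627 CPM. EFNB2 itself was at 1.21 ± 0.198 CPM with its guide and 0.119 ± 0.0509 CPM with the control guide (log2 fold change 3.32, SE 0.25, adjusted p = 4.69e-08). All 9 plasma cell markers examined were above 1 CPM, and their summed level was 3821 to 4023 CPM with the EFNB2 guide against 4360 to 4984 CPM in controls. T-cell markers summed to at most 5.73 CPM and fibroblast markers, mostly COL1A1, to 25.5 to 30 CPM against 19.9 to 27.2 CPM. Myeloid (S100A8 at 0), erythroid (ALAS2 at 0), epithelial and endothelial (CDH5 at 0) markers each summed to under 1 CPM. Whether these levels had a part in the members' differences was not tested, and bulk RNA cannot tell fewer cells of a type from less RNA per cell. Library A of each guide stood apart from the other 4 on the second principal component (8.33% of variance, on opposite sides), while the first (61.7%) separated the guides. Member values that turn on the A libraries are therefore given with and without both of them; without them 24 members were called, again 11 higher and 13 lower.

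The promoter stretches below are the 250 bases before the RefSeq start site (GRCh38.p14). They are shown for the members with the largest falls (HK2 and PDK3) and for BNIP3, with the most HIF core motifs of any member. They are also shown for LDHA and LDHB, isozymes whose levels as counted differed 105-fold per kilobase of exon in controls. The last stretch is that of PKM, the member with the highest CPM before any correction for length. Each reads 5′ to 3′ along its gene's strand, and capitals mark ACGTG or GCGTG on either strand (CACGT or CACGC when the motif is on the other strand), the core that HIF binds. The window of PKM lies inside the extent of its gene, which reaches to a start farther upstream; the other 5 windows end where their genes begin.
HK2, chr2:74833877-74834126, plus strand: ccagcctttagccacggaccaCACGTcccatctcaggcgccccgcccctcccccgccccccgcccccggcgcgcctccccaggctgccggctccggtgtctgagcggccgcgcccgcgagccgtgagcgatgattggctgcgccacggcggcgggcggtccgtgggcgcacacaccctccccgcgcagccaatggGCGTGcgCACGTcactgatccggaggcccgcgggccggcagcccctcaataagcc
PDK3, chrX:24465036-24465285, plus strand: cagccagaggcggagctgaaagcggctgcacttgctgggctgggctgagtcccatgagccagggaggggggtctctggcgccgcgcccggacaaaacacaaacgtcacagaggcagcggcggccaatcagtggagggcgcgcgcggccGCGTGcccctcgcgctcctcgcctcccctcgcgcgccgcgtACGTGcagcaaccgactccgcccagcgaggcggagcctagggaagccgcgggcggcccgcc
BNIP3, chr10:131981924-131982173, minus strand: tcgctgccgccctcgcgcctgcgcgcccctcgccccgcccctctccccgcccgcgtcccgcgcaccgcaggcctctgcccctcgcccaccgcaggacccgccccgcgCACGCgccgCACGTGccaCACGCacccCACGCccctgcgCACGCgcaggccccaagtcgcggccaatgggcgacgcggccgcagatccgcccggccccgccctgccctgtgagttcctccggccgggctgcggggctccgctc
LDHA, chr11:18394313-18394562, plus strand: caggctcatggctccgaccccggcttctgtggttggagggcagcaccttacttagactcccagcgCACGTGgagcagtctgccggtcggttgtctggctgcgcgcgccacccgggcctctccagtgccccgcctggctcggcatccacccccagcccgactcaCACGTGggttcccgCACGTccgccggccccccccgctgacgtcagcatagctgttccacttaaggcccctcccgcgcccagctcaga
LDHB, chr12:21657843-21658092, minus strand: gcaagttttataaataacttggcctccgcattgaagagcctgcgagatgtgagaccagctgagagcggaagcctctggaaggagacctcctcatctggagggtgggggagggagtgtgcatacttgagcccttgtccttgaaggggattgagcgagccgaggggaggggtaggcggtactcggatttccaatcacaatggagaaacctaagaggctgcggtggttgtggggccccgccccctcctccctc
PKM, chr15:72231191-72231440, minus strand: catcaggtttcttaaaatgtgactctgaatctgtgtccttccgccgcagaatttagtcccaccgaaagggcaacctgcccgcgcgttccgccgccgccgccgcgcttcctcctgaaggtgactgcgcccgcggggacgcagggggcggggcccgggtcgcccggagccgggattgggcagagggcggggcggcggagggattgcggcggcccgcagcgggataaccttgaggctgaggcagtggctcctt

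HK2 held 3 such cores, PDK3 2, BNIP3 5 and LDHA 3, while LDHB and PKM held none in this window. The palindrome CACGTG, which overlaps the core and is also the E-box bound by MYC and other helix-loop-helix factors, occurred 2 times in LDHA and 1 time in BNIP3. A core was present in 20 of the 29 tested members with a promoter sequence (69%), in 56.6% of 10989 promoters of tested genes and in 43.1% of all 27305 promoters in the RefSeq table. CACGTG was present in 5 of those 29 members (17.2%), against 8.92% and 6.49%. A match in these letters is a description and not a bound site. The promoters with cores belonged to members of either direction: HK2 and PDK3 fell, BNIP3 and LDHA rose.

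At the first step of glycolysis, the hexokinases that trap glucose in the cell changed unequally. HK2 (chr2:74834127-74893359, plus strand), the inducible and mitochondria-associated isozyme, read 14.7, 16.6, 15.1, 16 and 15.5 CPM in EFNB2-guide libraries A to E and 22.7, 24.3, 23.5, 23.2 and 25.2 CPM in control libraries A to E. Every EFNB2-guide library was below every control. HK2 was 15.6 ± 0.751 against 23.8 ± 0.97 CPM (SD, n = 5 each), 1.53-fold lower (log2 fold change -0.61, SE 0.04, edgeR adjusted p = 2.03e-08). The 20 tested genes around it, 10 on each side, had a median log2 fold change of -0.03. HK1, the constitutive isozyme, read 72.1, 68.1, 65.9, 67.8 and 66.7 CPM against 62.1, 64.5, 65, 67.3 and 66.1 CPM. Those ranges overlapped, and HK1 was not called (log2 fold change 0.07, SE 0.03, edgeR adjusted p = 0.0794), though 4 of 20 alternative settings put it past the threshold as higher. Without both A libraries its log2 fold change was 0.03 (edgeR adjusted p = 0.294). The ratio of HK1 to HK2, which does not depend on how libraries are scaled, rose from 2.62 to 2.90 in controls to 4.09 to 4.90 with the EFNB2 guide. That ratio's difference was 0.68 on the log2 scale (two-sided exact permutation p = 0.00794, the smallest that 5 libraries against 5 can give, adjusted p = 0.0185 over 14 paralogue pairs). Per kilobase of exon, HK1 stood at 10.3 CPM and HK2 at 3.92 CPM in controls, and at 10.8 and 2.57 CPM with the EFNB2 guide.

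**Figure D2:**
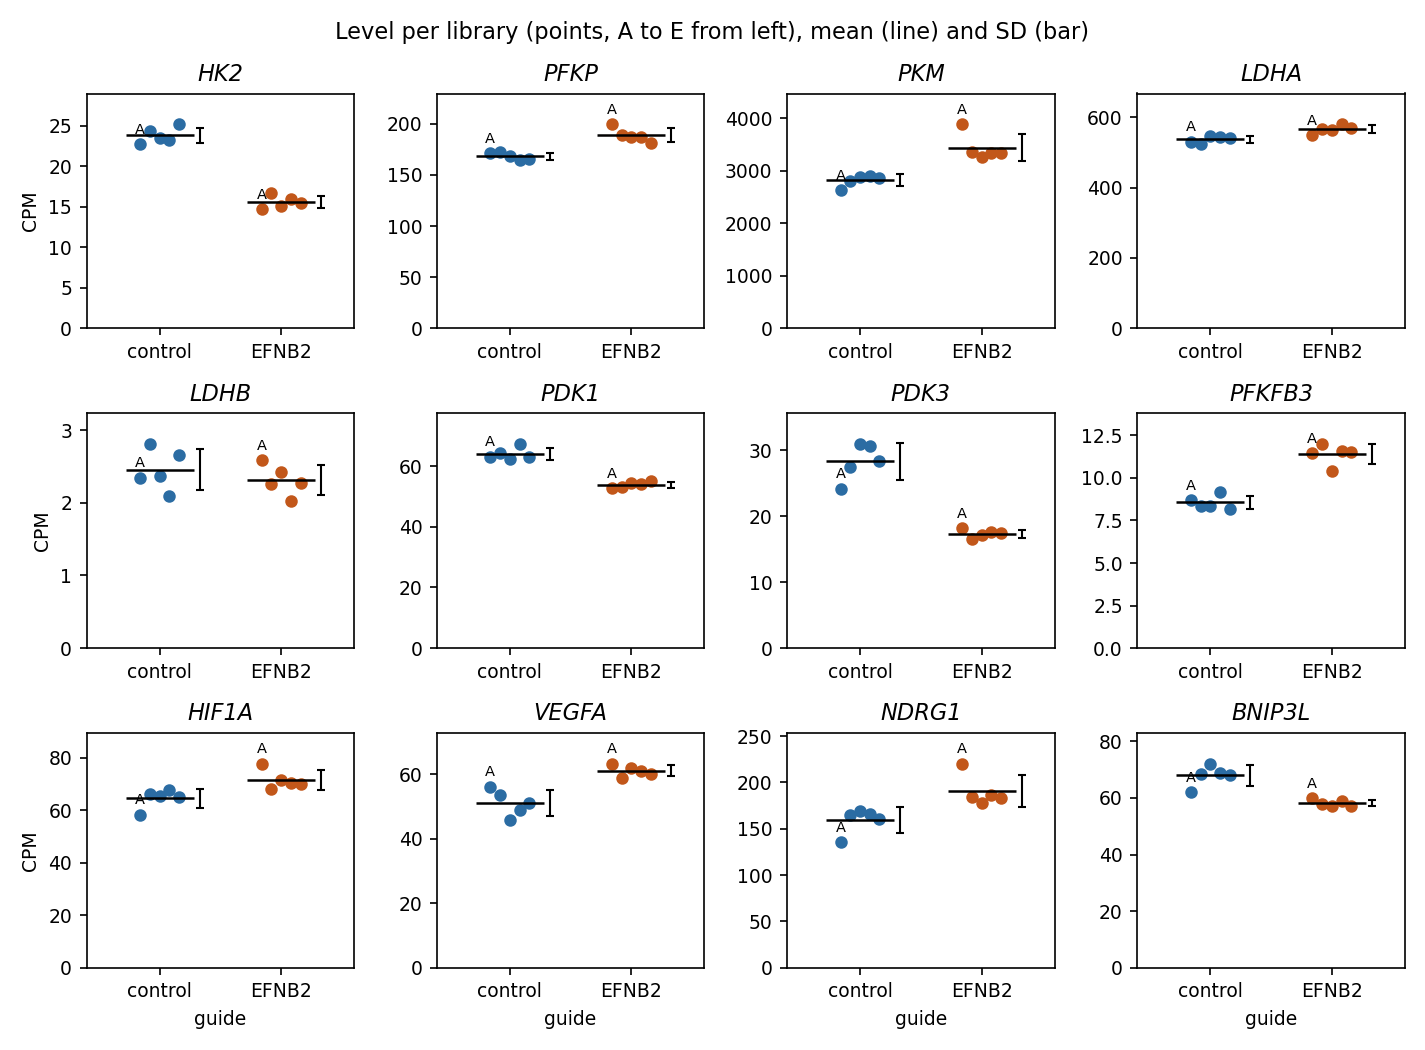
CPM of 12 members in each library (points, A to E from the left), by guide, with the mean of 5 as a line, the SD as a bar and library A marked; each panel has its own axis from 0. HK2 and PDK3 are lower in all 5 EFNB2-guide libraries than in any control, PFKFB3 is higher in all 5, and library A is the highest EFNB2-guide value for PKM and NDRG1.

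Phosphofructokinase, the main control point of the pathway, is a tetramer whose liver (PFKL), muscle (PFKM) and platelet (PFKP) subunits come from separate genes. PFKM fell, with 126, 123, 117, 118 and 123 CPM in EFNB2-guide libraries and 128, 141, 139, 140.5 and 143 CPM in controls. Its highest EFNB2-guide value, in library A, was just below the lowest control value, also in library A (log2 fold change -0.19, SE 0.03, edgeR adjusted p = 0.000257; -0.23 without both A libraries). PFKP rose, with 199.7, 189, 187, 188 and 181 CPM against 171, 172, 169, 164 and 166 CPM and no overlap (log2 fold change 0.16, SE 0.03, edgeR adjusted p = 0.000166). PFKL, at 291 ± 3.3 against 296 ± 4.49 CPM, was not called (edgeR adjusted p = 0.359). The PFKM to PFKP ratio fell from 0.745 to 0.862 in controls to 0.624 to 0.678 (difference -0.35 on the log2 scale, exact permutation p = 0.00794, adjusted p = 0.0185), and that of PFKL to PFKP fell too (difference -0.19, adjusted p = 0.0185). The PFKL to PFKM ratio rose by 0.16 on the log2 scale (exact permutation adjusted p = 0.0278), with library A of each guide making the ranges overlap. Per kilobase of exon the order was PFKP, PFKL, PFKM with both guides: 34.8, 33.2 and 18.9 CPM in controls, 39.0, 32.6 and 16.6 CPM with the EFNB2 guide. By CPM alone PFKL was above PFKP with both guides. The order of those 2 rests on the exon lengths used (8926 bases for PFKL, 4836 for PFKP).

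Between these steps and the splitting of the sugar, GPI, the isomerase that makes fructose 6-phosphate, fell slightly (242 ± 3.8 against 265 ± 4.95 CPM, log2 fold change -0.13, SE 0.02, edgeR adjusted p = 0.00018), with no overlap between guides. ALDOC, the brain-type aldolase, fell from 55.6 ± 1.87 to 47.1 ± 1.33 CPM (log2 fold change -0.24, SE 0.03, edgeR adjusted p = 1.43e-05) and its values also did not overlap. ALDOA, the widespread aldolase, was at 18.7 ± 1.81 against 20.7 ± 0.449 CPM. Its EFNB2-guide library A, at 21.8 CPM, lay above every control and the other 4 lay below every control. The call on ALDOA as lower was marginal (log2 fold change -0.14, SE 0.05, edgeR adjusted p = 0.0481) and was lost in 13 of 20 alternative settings, while without both A libraries the log2 fold change was -0.21 (adjusted p = 0.000125). ALDOA shares 42.3% of its exon bases with the gene model AC093512.2 on the same strand in GENCODE 29, so reads in those exons belong to neither gene alone. Its level is uncertain for that reason. The ALDOA to ALDOC ratio was not distinguishable between guides (difference 0.09 on the log2 scale, exact permutation adjusted p = 0.343).

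In the middle of the pathway, where triose phosphates are oxidised and ATP is first regained, 1 enzyme moved and 3 did not pass the test. GAPDH, which oxidises glyceraldehyde 3-phosphate and is often used as a reference gene, read 2103, 2044, 2003, 2025 and 2043 CPM with the EFNB2 guide and 2213, 2167, 2292, 2233 and 2257 CPM with the control guide. All EFNB2-guide values were below all control values, by 1.09-fold on the fitted mean (log2 fold change -0.13, SE 0.02, edgeR adjusted p = 0.000398). TPI1, PGK1 and PGAM1, the isomerase, kinase and mutase around it, had log2 fold changes of 0.02, 0.03 and -0.01 with edgeR adjusted p of 0.494, 0.473 and 0.86. Each had a standard error near 0.03, so 2 standard errors each way covered folds of 0.98 to 1.05 for TPI1, 0.975 to 1.07 for PGK1 and 0.954 to 1.04 for PGAM1. Rows for TPI1 pseudogenes held counts equal to 6.58% of the TPI1 count, and those for GAPDH 0.0724%, so a small share of TPI1 reads may be divided between copies.

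Enolase, which makes phosphoenolpyruvate, changed in its minor isozyme. ENO2, the neuronal type and a HIF-inducible gene, read 97.7, 94.6, 96.1, 93.6 and 94.8 CPM against 90.4, 87.3, 81.4, 80.5 and 85.2 CPM. Its lowest EFNB2-guide value was above its highest control value (log2 fold change 0.17, SE 0.03, edgeR adjusted p = 0.000489). ENO1, the major enolase, was at 2064 ± 77.9 against 2044 ± 32.9 CPM and was not called (log2 fold change 0.01, SE 0.03, edgeR adjusted p = 0.707). ENO1 supplied 95.6% of the summed CPM of the pair with the EFNB2 guide and 96.0% in controls. The ENO1 to ENO2 ratio was lower with the EFNB2 guide (difference -0.15 on the log2 scale, exact permutation adjusted p = 0.0278), and that call was lost on leaving out EFNB2-guide library B, C, D or E.

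PKM (chr15:72199029-72231591, minus strand), the pyruvate kinase of most tissues other than liver and red cells, had the largest change in CPM of any enzyme. It read 3889, 3351, 3273, 3341 and 3344 CPM with the EFNB2 guide and 2626, 2810, 2887, 2908 and 2864 CPM with the control guide. Library A was the highest of the first group, library A of the controls the lowest of the second, and the groups did not overlap. PKM was 1.22-fold higher (3440 ± 253 against 2819 ± 114 CPM, log2 fold change 0.29, SE 0.04, edgeR adjusted p = 7e-05), and 0.21 on the log2 scale without both A libraries (adjusted p = 8.74e-10). The genes around PKM were higher as well. Of its 20 tested neighbours, 10 on each side, 16 were called higher and 0 lower by edgeR. Their median log2 fold change was 0.33. Over all 489 tested genes of chromosome 15 that median was 0.30 and 344 genes were called higher, whereas the medians of the other chromosomes lay between -0.03 and 0.04. Without both A libraries the neighbours' median was 0.35 and that of the chromosome 0.29. The fold change of PKM was below the median of the genes beside it, and the part that the shift across chromosome 15 had in the rise of PKM was not tested. Pyruvate kinase isoforms M1 and M2 share this row and were not separated.

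Lactate dehydrogenase mRNA, as counted, was almost wholly of the A type. LDHA, whose subunit favours lactate formation, read 549, 566, 563, 580.3 and 569.8 CPM against 531, 524, 546, 545 and 539.6 CPM. The guides did not overlap, and the rise was 1.05-fold (log2 fold change 0.07, SE 0.02, edgeR adjusted p = 0.0139), lost without a filter on low counts (adjusted p = 0.0542) and in the deposited normalized values (adjusted p = 0.103). LDHB, the heart-type subunit, read 2.59, 2.26, 2.42, 2.03 and 2.273 CPM against 2.34, 2.81, 2.36, 2.09 and 2.66 CPM. These values were mixed between guides and LDHB was not called (log2 fold change -0.08, SE 0.10, edgeR adjusted p = 0.55). Per kilobase of exon LDHA stood at 86.5 CPM and LDHB at 0.823 CPM in controls, a ratio of 105. The ratio was 117 with the EFNB2 guide. LDHB shares 33.4% of its exon bases with the gene model AC010197.2 on the same strand, so reads in those exons belong to neither gene alone. The level of LDHB and the size of these ratios are uncertain for that reason. The LDHA to LDHB ratio did not differ between guides beyond the spread (difference 0.15 on the log2 scale, exact permutation adjusted p = 0.232). The LDHB promoter stretch printed above held 9 CpG and 0 HIF cores, that of LDHA 22 CpG and 3 cores; the median promoter of tested genes held 20 CpG.

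Summed over the 17 enzymes, glycolytic mRNA as counted was 10193 ± 385 CPM with the EFNB2 guide (9880 to 10863) and 9729 ± 231 CPM in controls (9391 to 9942). ALDOA and LDHB, whose levels are uncertain, enter the sum as counted, so its size and the shares below carry that limit. The lowest EFNB2-guide library lay below the highest control library. The sign of the difference rested on PKM: it was 463.7 CPM with PKM and -156.8 CPM without it (6754 ± 137 against 6910 ± 130). Without both A libraries the difference of the full sum was 212 CPM. PKM made up 33.7% of the sum with the EFNB2 guide and 29% in controls, GAPDH 20.1% and 23.0%, and ENO1 20.3% and 21.0%. Per kilobase of exon GAPDH was the highest member with both guides (686 CPM with the EFNB2 guide, 749 CPM in controls). ENO1 followed in controls (387 against 329 for PKM) and PKM followed with the EFNB2 guide (401 against 391 for ENO1). By CPM alone PKM was the highest with both guides, so this order rests on the exon lengths used (8571 bases for PKM, 5276 for ENO1, 2981 for GAPDH).

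**Figure D3:**
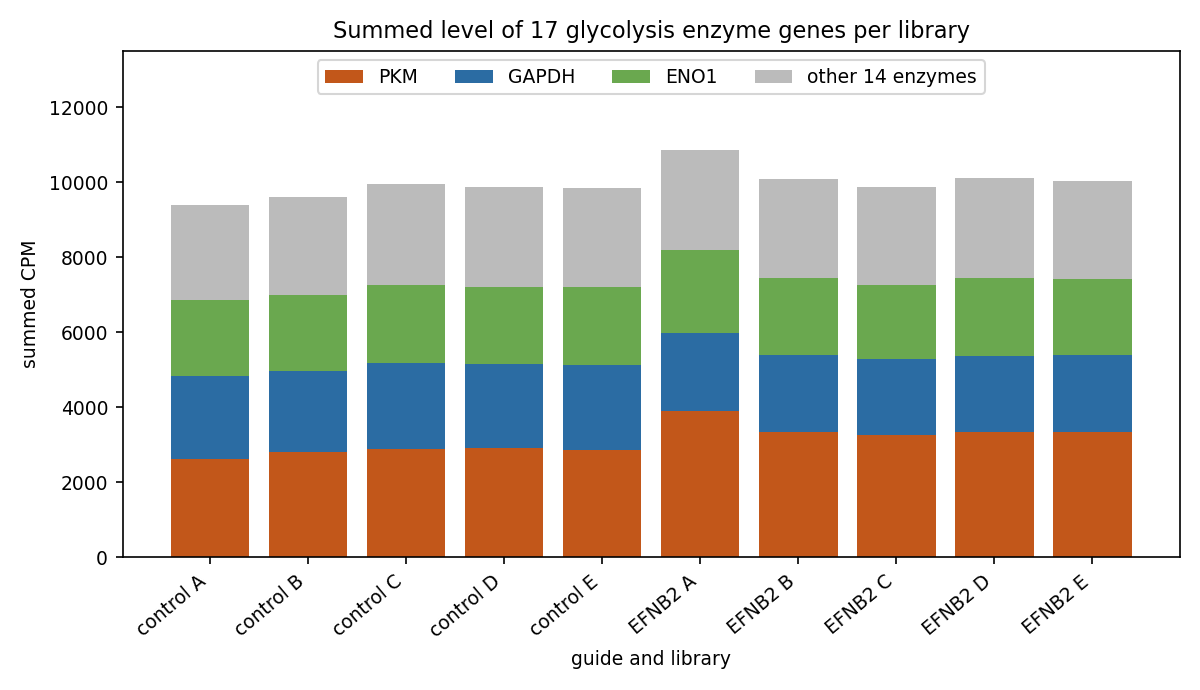
Summed CPM of the 17 glycolysis enzymes in each library as stacked bars from 0, divided into PKM, GAPDH, ENO1 and the other 14 enzymes. The PKM block is taller in the EFNB2-guide libraries, most of all in A, and the GAPDH block is shorter.

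The 5 regulators of glycolytic flux all passed the test, 3 lower and 2 higher, where 45.4% of all genes tested passed. PDK3, a kinase that inactivates pyruvate dehydrogenase and so keeps pyruvate out of the citric acid cycle, had the largest change of any member. PDK3 (chrX:24465286-24550466, plus strand) read 18.2, 16.5, 17.1, 17.5 and 17.4 CPM with the EFNB2 guide and 24.1, 27.5, 31, 30.6 and 28.4 CPM with the control guide. No EFNB2-guide library reached the lowest control, and the controls themselves were more spread. It was 1.63-fold lower (17.3 ± 0.601 against 28.3 ± 2.76 CPM, log2 fold change -0.71, SE 0.06, edgeR adjusted p = 1.31e-07), while its 20 neighbours had a median of -0.01. PDK1, the HIF-inducible kinase of the same family, read 52.7, 53.3, 54.3, 54.2 and 55.2 CPM against 63.1, 64.3, 62.5, 67.4 and 63 CPM. Its groups were also separate, with a smaller fall (log2 fold change -0.25, SE 0.03, edgeR adjusted p = 3.02e-06). The PDK1 to PDK3 ratio rose from 2.02 to 2.62 in controls to 2.90 to 3.22 (difference 0.45 on the log2 scale, exact permutation p = 0.00794, adjusted p = 0.0185). Per kilobase of exon PDK3 was above PDK1 in controls (5.72 against 4.3 CPM), and the pair was level with the EFNB2 guide (3.5 against 3.62 CPM). By CPM alone PDK1 was above PDK3 with both guides. The lengths used count every annotated exon (14883 bases for PDK1, 4951 for PDK3), so the order of the pair is uncertain.

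The PFKFB enzymes make and remove fructose 2,6-bisphosphate, the strongest activator of phosphofructokinase. PFKFB3, the form with the highest kinase activity and a HIF target, read 11.5, 12, 10.4, 11.6 and 11.5 CPM against 8.7, 8.34, 8.37, 9.2 and 8.2 CPM. All EFNB2-guide values were above all controls, by 1.33-fold (log2 fold change 0.41, SE 0.05, edgeR adjusted p = 1.19e-05). PFKFB4, a testis-type and hypoxia-inducible form, read 6.12, 6.15, 5.14, 5.74 and 5.93 CPM against 5.35, 4.21, 3.99, 4.37 and 4.34 CPM. Control library A, the highest control, lay within the EFNB2-guide range and the other controls lay below it (log2 fold change 0.39, SE 0.08, edgeR adjusted p = 0.00146). PFKFB2, the heart-type form, went the other way, from 33.2 ± 0.811 to 27.8 ± 0.848 CPM with no overlap (log2 fold change -0.25, SE 0.03, edgeR adjusted p = 1.15e-05). The PFKFB2 to PFKFB3 ratio fell from 3.69 to 4.06 in controls to 2.31 to 2.53 (difference -0.66 on the log2 scale, exact permutation p = 0.00794, adjusted p = 0.0185). The PFKFB3 to PFKFB4 ratio was not distinguishable between guides (difference 0.02, exact permutation adjusted p = 0.841).

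**Figure D4:**
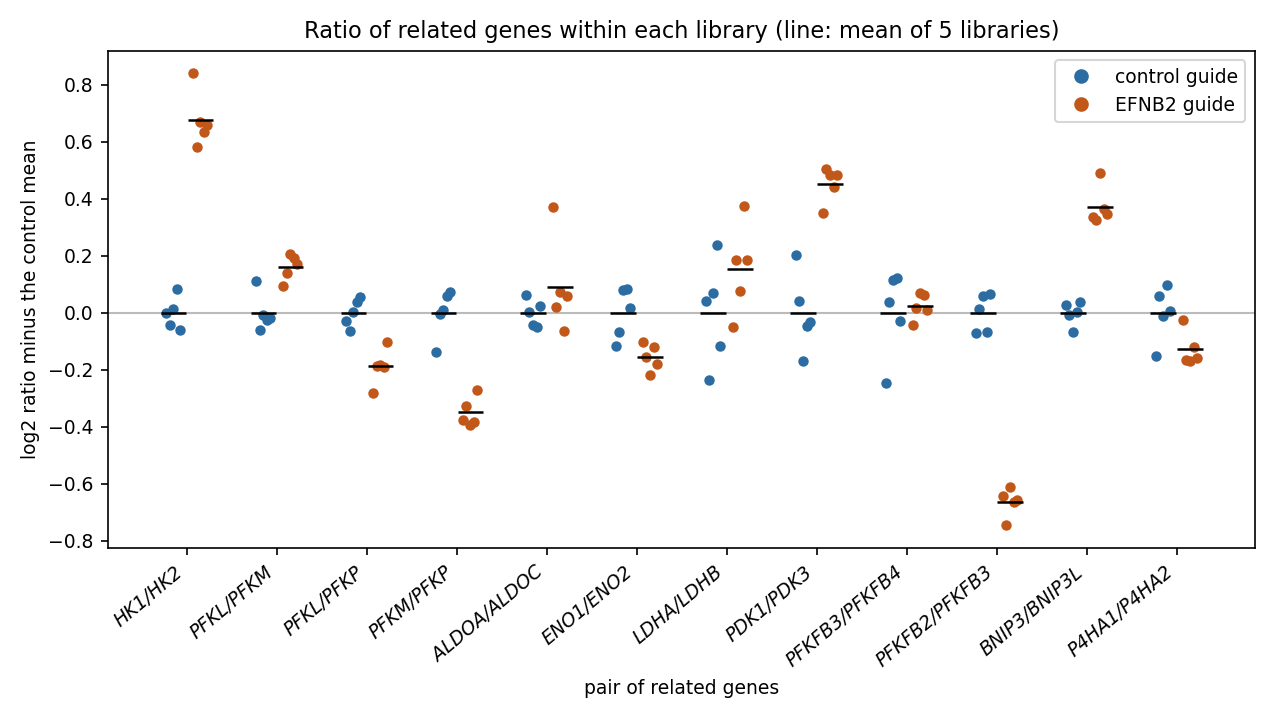
Log2 ratio of the CPM of paralogous members in each library, drawn as the deviation from the control mean of the pair, by guide, with the mean of 5 libraries as a line. HK1/HK2, PDK1/PDK3 and BNIP3/BNIP3L lie above all controls and PFKFB2/PFKFB3 and PFKM/PFKP below all controls; of 14 pairs tested, 8 differed at an adjusted p of 0.05 by exact permutation, and the 2 pairs with EPAS1 or EGLN3 are not drawn.

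Among the members that are HIF subunits and oxygen sensors, HIF1A was higher and 2 genes that promote its breakdown were lower. EGLN2, a HIF hydroxylase that is not a member, was called higher with overlapping groups (log2 fold change 0.47, described below). HIF1A, the oxygen-labile subunit, read 77.9, 68, 71.8, 70.6 and 69.9 CPM with the EFNB2 guide and 58.4, 66.1, 65.5, 67.8 and 65 CPM with the control guide. The groups were separate by a narrow margin, with library A highest in one and lowest in the other. HIF1A was 1.11-fold higher (log2 fold change 0.15, SE 0.04, edgeR adjusted p = 0.00885), and 0.08 on the log2 scale without both A libraries (adjusted p = 0.00701). EGLN1, the prolyl hydroxylase PHD2 that marks HIF1A for degradation in normal oxygen, was at 17.5 ± 0.794 against 19.8 ± 1.39 CPM, and control library A lay within the EFNB2-guide range (log2 fold change -0.18, SE 0.05, edgeR adjusted p = 0.00859). VHL, the ubiquitin ligase component that binds hydroxylated HIF, read 120.1, 116, 119.8, 119.5 and 119.6 CPM against 131, 129.5, 134, 127 and 127 CPM. VHL did not overlap between guides and the fall was 1.09-fold (log2 fold change -0.12, SE 0.02, edgeR adjusted p = 0.000455).

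EPAS1, the gene of HIF-2 alpha, was low, with 54 counts in the 5 EFNB2-guide libraries and 54 in the 5 controls (0.215 and 0.2 CPM on average). EGLN3, the hydroxylase PHD3 and itself a HIF target, had 8 counts against 19. These 2 genes and CA9 did not pass the filter on low counts and were not tested.

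Of the 8 HIF targets tested, 4 rose, 1 fell and 3 were not called (62.5% called, against 45.4% of all genes tested). VEGFA, the vascular endothelial growth factor, read 63.3, 58.9, 61.9, 60.9 and 60.1 CPM with the EFNB2 guide and 56, 53.5, 45.7, 48.8 and 51 CPM with the control guide. Its 5 EFNB2-guide values were all above the controls, by 1.196-fold (log2 fold change 0.26, SE 0.05, edgeR adjusted p = 0.000247). NDRG1, a stress-induced gene that is a common hypoxia marker, read 220.4, 185, 177, 187 and 183 CPM against 135, 165, 169.5, 166 and 161 CPM. The A libraries held the highest and the lowest value of all 10, and the groups were separate with or without them (log2 fold change 0.26, SE 0.06, edgeR adjusted p = 0.00316; without both, 0.15 and 5e-06). P4HA2, a collagen prolyl 4-hydroxylase subunit, read 25.6, 23.8, 22.6, 23 and 23.5 CPM against 19.3, 20.8, 20.9, 19.9 and 20.5 CPM. It was higher with no overlap (log2 fold change 0.23, SE 0.04, edgeR adjusted p = 0.000312). P4HA1, the related subunit, read 55.5, 46.7, 44.2, 46.6 and 46.5 CPM against 38.2, 47.6, 45.7, 47 and 45.2 CPM. Only the A libraries stood apart, and P4HA1 was not called (log2 fold change 0.10, SE 0.06, edgeR adjusted p = 0.221; -0.01 without both A libraries).

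The paired mitophagy receptors BNIP3 and BNIP3L, which tether mitochondria to autophagosomes and are both induced by HIF, moved apart. BNIP3 read 27, 25.9, 28.7, 27.1 and 26 CPM against 22.6, 24.3, 24.6, 24.7 and 25 CPM. It was higher in every EFNB2-guide library than in any control (log2 fold change 0.15, SE 0.04, edgeR adjusted p = 0.005). BNIP3L read 59.9, 57.9, 57.1, 58.8 and 57.3 CPM against 62, 68.4, 72.1, 69 and 68.2 CPM. It was lower in every EFNB2-guide library than in any control (log2 fold change -0.22, SE 0.04, edgeR adjusted p = 9.91e-05). The BNIP3 to BNIP3L ratio rose from 0.341 to 0.367 in controls to 0.447 to 0.501 (difference 0.37 on the log2 scale, exact permutation p = 0.00794, adjusted p = 0.0185).

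The remaining targets were low or did not pass the test. ADM, the vasodilator peptide adrenomedullin, was at 18 ± 0.498 against 19.3 ± 1.1 CPM (log2 fold change -0.10, SE 0.04, edgeR adjusted p = 0.0779). ANKRD37, a small ankyrin-repeat gene induced by HIF, was at 3.66 ± 0.311 against 3.37 ± 0.104 CPM (log2 fold change 0.12, SE 0.08, edgeR adjusted p = 0.235). ANKRD37 overlaps UFSP2 on the other strand over 35.2% of its exon bases; UFSP2 had 9213 counts against 1831, and the kit kept strand but the strand setting of the counting is not given in the sources used here. CA9, the cell-surface carbonic anhydrase that is among the most hypoxia-specific HIF targets, had 6 counts in all EFNB2-guide libraries and 3 in all controls. MXRA7, a member with no assigned place in the pathway, read 4.5, 3.83, 3.53, 3.77 and 3.85 CPM against 4.84, 5.2, 5.93, 6.32 and 5.58 CPM. MXRA7 was lower without overlap (log2 fold change -0.51, SE 0.09, edgeR adjusted p = 0.000188), and -0.62 without both A libraries.

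Genes next to the members in metabolism were read from lists that do not contain them. Among 12 tested further isozymes, 4 were higher and 1 lower (41.7% called, against 45.4% of all genes tested). Their median log2 fold change was 0.18, beside 0.01 over all genes. The largest rises in this list, up to 0.76, were in genes of low counts, so that median rests partly on them. ADPGK, an ADP-dependent glucokinase on chromosome 15, rose from 165 ± 5.12 to 219 ± 6.58 CPM (log2 fold change 0.41), and TIGAR, a fructose bisphosphatase that opposes PFKFB3, rose from 2.87 to 3.74 CPM (0.38). LDHC, the testis lactate dehydrogenase, fell by 0.23 on the log2 scale, a call lost in 5 of 20 alternative settings. Among 10 tested genes of sugar, lactate and pyruvate transport, 3 were higher and 2 lower (50% called, against 45.4% of all genes tested). SLC2A12 (0.27) and SLC2A8 (0.25), which carry hexoses, rose, and the lactate and pyruvate carriers SLC16A7 (-0.29) and SLC16A1 (-0.17) fell, all without overlap. The HIF-inducible carriers SLC2A1, at 8.31 ± 0.258 against 7.85 ± 0.324 CPM, and SLC16A3, at 8.07 ± 0.468 against 7.59 ± 0.688 CPM, were not called by edgeR (adjusted p = 0.209 and 0.311).

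Among 9 tested genes of the pyruvate dehydrogenase complex and its regulators, 1 was higher and 5 were lower (median log2 fold change -0.08). That is 66.7% called, against 45.4% of all genes tested and 57.2% of those at 10 CPM or more. PDHX, the binding protein of the complex, rose by 0.12, the phosphatase PDP2, which reverses PDK action, fell by 0.23, and the catalytic subunits PDHB and PDHA1, the latter phosphorylated by the PDK kinases, fell by 0.09 and 0.08 on the log2 scale. PDHA1 lost its call in 3 of 20 settings and PDHB in 1. The pentose phosphate branch, which draws on glucose 6-phosphate, had 2 of 7 higher and 4 lower (85.7% called, beside the same 45.4% and 57.2%). PGD (-0.17) and TKT (-0.13) fell and TALDO1 (0.06) rose, a call lost in 11 of 20 settings.

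Among 15 tested further components of the HIF pathway, 2 were higher and 3 lower (33.3% called, against 45.4% of all genes tested). CITED2, which competes with HIF1A for the coactivators CREBBP and EP300, rose from 38.3 ± 4.14 to 56.8 ± 1.49 CPM (log2 fold change 0.57, SE 0.06, edgeR adjusted p = 1.41e-06). ARNT, the constitutive partner of HIF1A, fell by 0.12 (adjusted p = 0.00366, with control library A within the EFNB2-guide range), and RACK1 and ELOC fell by 0.18 and 0.15 on the log2 scale. EGLN2, the hydroxylase PHD1, was at 3.87 ± 0.617 against 2.8 ± 0.619 CPM, called as higher with overlapping groups (edgeR adjusted p = 0.0163). HIF1AN, the asparaginyl hydroxylase that blocks HIF coactivator binding, was not called with all libraries (edgeR adjusted p = 0.237) and was lower without both A libraries (log2 fold change -0.09, adjusted p = 0.000998).

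A longer list of HIF targets that are not members had more genes lower than higher. Of 49 tested, 10 were higher and 24 lower, with a median log2 fold change of -0.11. Over all genes tested 22.8% were called higher and 22.6% lower. Among the 8 tested members listed as targets 4 were higher and 1 lower, with a median of 0.14. That list leaves out members filed as enzymes or regulators and described above as induced by HIF or hypoxia. Of these, ENO2, PFKFB3 and PFKFB4 rose and PDK1 fell. HK2, the inducible hexokinase and also a HIF target, fell more than PDK1 (log2 fold change -0.61 against -0.25). Other enzymes may be HIF targets too, so this is not a full tally. AK4, a mitochondrial adenylate kinase, fell from 11.3 ± 0.707 to 4.49 ± 0.684 CPM, 2.51-fold (log2 fold change -1.33, SE 0.09, edgeR adjusted p = 7.62e-09). HMOX1, the heme oxygenase also induced by oxidative stress, fell from 144 ± 29 to 76.3 ± 14.2 CPM (log2 fold change -0.91), and DDIT4, an inhibitor of mTORC1, fell from 18.6 ± 1.47 to 12.3 ± 1.2 CPM (-0.59). CCNG2, cyclin G2, rose by 0.64, RORA, a nuclear receptor gene on chromosome 15, by 0.51, and TGFA, a growth factor, by 0.35 on the log2 scale. TGFA was not called without both A libraries (log2 fold change 0.21, edgeR adjusted p = 0.108) or with the library letter as a block (0.34, adjusted p = 0.06). KDM3A (-0.14) and MXI1 (-0.17), a demethylase and a MYC antagonist, both fell. The difference between these lists was not tested, and SLC2A1 and SLC16A3 stand in the transport list too.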

How the data were processed

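RNA of 10 U266 libraries, 5 with the EFNB2 guide and 5 with the control guide by the genotype label, was made with a strand-specific poly(A) kit, per the labels' protocols. All results rest on a table of unnormalized whole-number counts per gene that the authors deposited. A second deposited table holds a signal that the authors normalized per library; it served as an alternative after log2(value + 1). GRCh38, STAR 2.27a, Partek and DESeq2 are named, per the submitters' processing notes, without their roles; which annotation, counter and strand setting were used is not given in the sources used here, a limit for overlapping genes. The 4 rows that name no gene held at most 0.000401% of a library's counts and were left out.

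From the deposited counts, 17833 of 60573 genes passed filterByExpr of edgeR 4.0.16 (R 4.3.3). They were compared by edgeR's quasi-likelihood test on TMM-scaled libraries with guide as the only term, Benjamini-Hochberg adjustment and a threshold of 0.05, and edgeR's common dispersion gave a coefficient of variation of 0.0489. The standard error is the absolute log2 fold change over the square root of F. CPM use TMM-scaled totals, and levels between genes were compared per kilobase of GENCODE 29 exons. That length joins all annotated exons of a gene and is not the length of its expressed mRNA. An order between genes can therefore depend on it. Ratios of 14 paralogue pairs (log2 CPM, prior count 2) were compared by two-sided exact permutation. Library pairs of a guide differed by more than sampling noise (chi-square per degree of freedom 1.94 to 22.9), so none was merged as a re-read of another. This measure cannot tell whether libraries came from separate cultures. The code was tested on simulated counts.

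Members, lists and tests were chosen with earlier results of these data known. All members are named, and from each further list the largest called changes, up to 3 each way, where guides did not overlap and log2 CPM averaged 1 or more, plus ARNT, HIF1AN, EGLN2, KDM3A, SLC2A1, SLC16A1, SLC16A3, PDHA1 and MXI1; some items under this rule are not reported here. Positions and promoters came from RefSeq (GRCh38.p14) by symbol; 32 of 37 members had a promoter sequence. Alternatives were DESeq2 1.42.0, limma-voom (limma 3.58.1), other scalings and filters, a replicate block, the deposited normalized signal, leaving out libraries, and leaving out chromosome 15 genes. Intervals of 2 standard errors and floors of 3 counts cover the spread of these libraries and counting error only.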

Additional observations from a re-analysis of the deposited data

Results flagged for a closer look

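Of 98 groups of 5 values examined (member CPM, paralogue ratios and the summed enzymes in each guide), 13 held a library far from the other 4, where chance flags about 1 in 20. Library A was the odd value in 10 of them, 4 with the EFNB2 guide and 6 with the control guide. In EFNB2-guide library A, PKM was at 3889 CPM (others 3273 to 3351), NDRG1 at 220.4 CPM (177 to 187), P4HA1 at 55.5 CPM (44.2 to 46.7) and the summed enzymes at 10863 CPM (9880 to 10105), each the highest of its group. In control library A, NDRG1 was at 135 CPM (others 161 to 170), P4HA1 at 38.2 CPM (45.2 to 47.6), PFKM at 128 CPM (139 to 143), ALDOC at 52.4 CPM (55.8 to 56.8) and BNIP3 at 22.6 CPM (24.3 to 25.0), each the lowest, and PFKFB4 at 5.35 CPM (3.99 to 4.37), the highest. NDRG1 and P4HA1 thus stood apart in the A library of both guides, in opposite directions.

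The other 3 were in other EFNB2-guide libraries. VHL was low in library B at 116 CPM (others 120 to 120.1). ADM was low in library E at 17.1 CPM (18.1 to 18.3). The log2 ratio of BNIP3 to BNIP3L was high in library C at -0.99 (others -1.16 to -1.12).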

How the results depend on the processing

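Of the 34 tested members, 22 (without chromosome 15 genes, a fit that omits PKM) to 24 were called in every setting tried, and of all genes 6763 (replicate block) to 9853 (without both A libraries), so no count moved by 1.5 times. Leaving out a library in turn gave 23 to 24 members and 7261 to 9110 genes. Calls that depended on a setting were those on ALDOA (lost in 13 of 20), LDHA (lost in 2), HK1 (gained in 4) and ADM (gained in 2). Members that changed sign were never past the threshold; the cause was not tested. They were TPI1 in the deposited normalized values (-0.0018), PGK1 without both A libraries (-0.012), PGAM1 with library totals alone (0.0088), ENO1 in the deposited normalized values (-0.012) and without both A libraries (-0.015), and P4HA1 without both A libraries (-0.012). Leaving out 1 library moved PGK1 between -0.0029 and 0.052, PGAM1 between -0.038 and 0.0085 and ENO1 between -0.0050 and 0.032. The log2 ratio differences of PFKFB3 to PFKFB4 (-0.022 without both A libraries, -0.038 to 0.055 without 1 library) and HIF1A to EPAS1 (-0.18, and -0.026 to 0.38) also turned. Summed enzymes without PKM were lower with the EFNB2 guide (-156.8 CPM).

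The labels do not say that a letter pairs libraries, and same-letter deviations did not go together (correlation -0.24 to -0.003). With the letter as a replicate block 23 members and 6763 genes were called. Paired within letters, 0 of 14 paralogue ratios passed against 8 unpaired, since 5 pairs allow no p under 0.0625; leaving out 1 library gave 7 to 9. CA9, EGLN3 and EPAS1 had too few counts to pass the filter.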
